A study of Mus musculus with 3 samples.

Results

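The 5 genes described here, Pate8, Pate9, Pate14, Defb42 and Defb50, were taken by symbol from the 32594 genes listed in 3 single-cell matrices of whole mouse prostate. They were chosen for how their UMIs (unique molecular identifiers, 1 per captured transcript) varied over cell types and genotypes in these libraries, so their levels are given as a description, with no test. The libraries were 1 from Srd5a2 knockout and 2 from Srd5a2 heterozygous (heterozygote) C57BL6 mice, labelled 12 to 15 weeks old with no treatment given, and no wild-type library is among them. Srd5a2 encodes the reductase that turns testosterone into the stronger androgen dihydrotestosterone. Digestion took 2 h at 37 °C in collagenase, and its buffer held dihydrotestosterone for every library, so all 3 share that androgen exposure. The number of animals in a library is not labelled, nor whether the heterozygote libraries came from separate animals.

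Pate proteins, named for prostate and testis expression, are small secreted or membrane-anchored proteins rich in cysteines, with the fold of the Ly-6 family, and several are found in seminal fluid. Beta-defensins are short secreted antimicrobial peptides held together by disulfide bonds. Many are made by epithelium of the male reproductive tract, and some coat sperm. The seminal vesicle, whose secreted proteins make up much of rodent seminal fluid, adjoins the prostate.

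The coding sequences are shown because both families are defined by the spacing of their cysteines. They were read by Ensembl gene ID from the GENCODE vM21 transcripts (GRCm38) and carry cysteine codons in capitals. For the Pate genes the stretch that holds their last 10 cysteine codons is given (codons 34 to 106 of 109 in Pate8, 26 to 98 of 101 in Pate9, 24 to 96 of 99 in Pate14), and for the defensins the whole coding sequence before the stop codon.
Pate8: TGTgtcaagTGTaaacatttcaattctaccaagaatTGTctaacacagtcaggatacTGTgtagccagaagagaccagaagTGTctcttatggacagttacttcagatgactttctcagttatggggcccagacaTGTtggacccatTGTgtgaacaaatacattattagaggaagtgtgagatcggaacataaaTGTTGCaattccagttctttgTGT
Pate9: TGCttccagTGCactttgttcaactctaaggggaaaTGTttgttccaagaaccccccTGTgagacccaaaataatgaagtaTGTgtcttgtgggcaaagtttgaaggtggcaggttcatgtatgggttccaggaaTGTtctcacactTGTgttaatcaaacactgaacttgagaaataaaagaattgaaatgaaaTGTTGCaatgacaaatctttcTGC
Pate14: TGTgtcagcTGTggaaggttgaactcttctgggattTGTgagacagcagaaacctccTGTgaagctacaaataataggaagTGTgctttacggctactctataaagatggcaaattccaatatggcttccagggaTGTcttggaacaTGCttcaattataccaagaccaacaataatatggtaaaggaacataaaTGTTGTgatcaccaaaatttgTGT
Defb42: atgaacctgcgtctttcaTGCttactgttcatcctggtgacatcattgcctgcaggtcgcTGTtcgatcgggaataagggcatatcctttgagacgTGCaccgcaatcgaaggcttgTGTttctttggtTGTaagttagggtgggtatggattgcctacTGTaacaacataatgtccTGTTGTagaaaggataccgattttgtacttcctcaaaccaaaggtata
Defb50: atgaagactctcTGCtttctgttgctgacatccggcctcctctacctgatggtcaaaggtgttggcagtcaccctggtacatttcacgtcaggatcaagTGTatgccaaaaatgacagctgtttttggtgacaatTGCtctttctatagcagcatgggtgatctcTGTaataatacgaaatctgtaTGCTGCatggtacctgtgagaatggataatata
These 10 cysteine codons had the same spacing in Pate8, Pate9 and Pate14, with 2, 8, 6, 7, 17, 3, 15, 0 and 5 codons between neighbours. Over that stretch of 73 codons (219 bases, no gaps) Pate8 and Pate9 were identical at 54.3% of bases, Pate8 and Pate14 at 53.9%, and Pate9 and Pate14 at 57.5%. Pate8 had 3 further cysteine codons near its start and Pate9 had 1. Defb42 had 8 cysteine codons in 75 codons and Defb50 had 6 in 73, and in both the last cysteine codons were an adjacent pair.

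**Figure D1:**
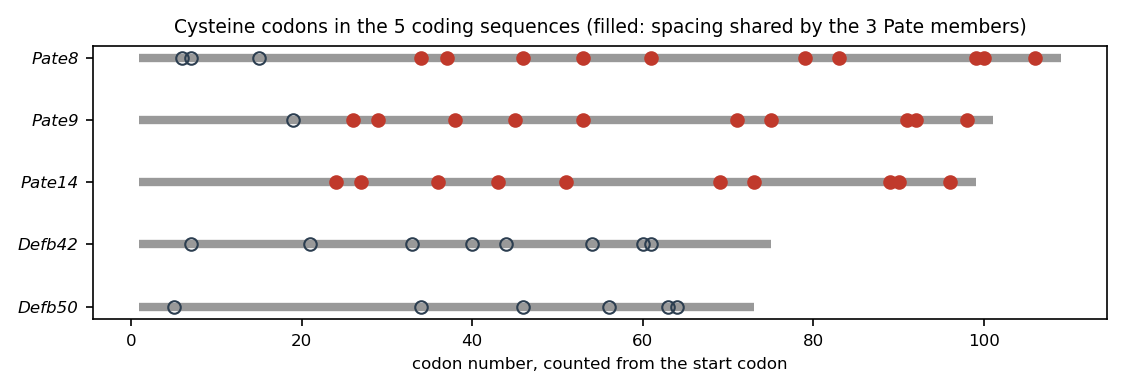
Codon positions of cysteines in the 5 coding sequences, counted from the start codon. Grey bars span the coding sequence, filled points are the 10 cysteine codons whose spacing Pate8, Pate9 and Pate14 share, and open points are the other cysteine codons.

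GENCODE vM21 lists the Pate members under the names Gm17689 (Pate8), Gm5615 (Pate9) and A630095E13Rik (Pate14). Pate8 (chr9:36581278-36582635), Pate9 (chr9:36532397-36541963) and Pate14 (chr9:36635754-36643376) lie on the minus strand of mm10 within 111.0 kb, with no other protein-coding gene between them. All 14 listed Pate genes lie on chromosome 9. Defb42 (chr14:63046991-63058149, plus strand) overlaps Defb30 on the other strand, and whether counting used strand is not given in the sources used here. Pate14 overlaps Gm49367 on its own strand and shares 18.8% of its 31-base words with it, so reads there could be split. Gm49367 had 215, 164 and 369 UMIs in the knockout, heterozygote 1 and heterozygote 2. Defb50 (chr8:21823539-21831296, plus strand) lies between Defb1 and Defb2. RefSeq promoters (GRCm38.p6, 250 bases before to 50 after the start) were at hand for Pate9, Pate14 and Defb42. The androgen receptor motif AGAACA, searched on both strands, was in none of these 3 and in 19.0% of 32851 promoters of that length. The RefSeq start used for Pate14 lies inside the GENCODE gene span, so that window is not the GENCODE promoter.

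The libraries held 13273, 5000 and 13866 barcodes and 129015041, 47601747 and 100801564 UMIs (knockout, heterozygote 1, heterozygote 2, the order used throughout). Of these barcodes 8833, 4526 and 9331 were kept as cells, at medians of 4364, 7025 and 5105 UMIs. The lowest barcode total was 2466 in heterozygote 1 against 586 and 500 in the others, and pairs of libraries shared 15 to 57 barcodes. Srd5a2 had 17, 145 and 210 UMIs, or 0.132, 3.05 and 2.08 CPM, the usual scaled count of a gene's UMIs relative to all UMIs of the cells named. Cells were clustered without any Pate or Defb gene, and clusters are called here by leading genes. The 7 seminal vesicle markers took 41.4% of all knockout UMIs against 13.2% and 11.5% in the heterozygotes, and Svs2 was seen in 99.2 to 100% of cells of every cluster, immune and glial cells included. The part of RNA from outside the cells in the member levels was not tested. Barcodes with under 500 genes are used below as the background, and heterozygote 1 had too few of them for a value. Whether these barcodes hold mostly RNA from outside the cells (free RNA) or shallow cells was not tested. Basal cells had 0.144 and 0.295 times that background of Pate9 in the knockout and heterozygote 2. A level under the background can therefore still exceed that of other cells.

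Pate8 was highest in the Svs2 Lpo cells (467, 300 and 499 cells), a cluster that carries the seminal vesicle genes Svs2 and Svs5 and the peroxidase gene Lpo. It was named by leading genes because only 2 of 7 seminal vesicle markers passed the marker thresholds there. That marker list took 47.9%, 51.7% and 53.5% of their UMIs, while the prostate transcription factor Hoxb13 was seen in 5.85% of the cells. Their Pate8 level was 596 CPM in the knockout (exact 95% counting interval 581 to 612), 285 in heterozygote 1 (271 to 299.7) and 195 in heterozygote 2 (187 to 203). The knockout lay above both heterozygotes, at 2.49 times their mean of 240 ± 64.0 CPM (SD, n = 2). This cluster held 72.5% of the Pate8 UMIs of all kept cells.

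After thinning each cell to 1000 UMIs, leaving out 1, 0 and 7 shallower cells, Pate8 was seen in 33.0% (exact interval 28.8 to 37.5%), 22% (17.4 to 27.1%) and 15.0% (12.0 to 18.5%) of Svs2 Lpo cells. Without thinning the shares were 73.0%, 69.3% and 69.5%, close together. In the largest basal cluster, which should lack the gene, unthinned shares were 1.69%, 0.762% and 0.0966%, at a median of 3145 UMIs per cell against 15559.5 in Svs2 Lpo cells.

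Defb42 peaked in the same cells but stood the other way between genotypes. Its level in Svs2 Lpo cells was 526 CPM in the knockout (512 to 541), 887 in heterozygote 1 (862 to 913) and 670 in heterozygote 2 (654 to 685). The knockout lay below both, with a heterozygote mean of 778 ± 154 CPM, 1.48 times the knockout. Thinned shares of cells with Defb42 were 28.1%, 49.3% and 43.1%, against 0.899%, 0.381% and 1.17% in the basal cluster. Unthinned shares were 69.6%, 93% and 88.0% in Svs2 Lpo cells and 3.87%, 1.71% and 3.19% in the basal cluster.

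Ionocytes, ion-transporting cells marked by the transcription factor Foxi1 and proton pump subunits, were the next highest cluster for both genes (191, 109 and 207 cells). Pate8 stood there at 348 CPM (328 to 369) in the knockout, 179.9 (161 to 201) in heterozygote 1 and 166 (153 to 180) in heterozygote 2. Defb42 stood at 378 (357 to 399), 633 (597 to 671) and 532 (509 to 557) CPM. Both genes thus had the same order of genotypes as in Svs2 Lpo cells. Over the 3 libraries the Pate8 mean was 231 ± 101 CPM in ionocytes and 359 ± 211 in Svs2 Lpo cells, and the Defb42 means were 514 ± 129 and 694 ± 182 (SD, n = 3). Svs2 Lpo cells stood above ionocytes in each of the 3 libraries for both genes, while the difference of the means was smaller than the SD of Svs2 Lpo cells over libraries.

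Within the ionocyte cluster the Pate8 and Defb42 transcripts sat in a subset of cells. Both genes were seen in 28.3%, 39.4% and 36.7% of ionocytes and neither in 59.7%, 43.1% and 45.4%, where independent occurrence would put both in 11.8%, 23.0% and 20.5%. Cells with both held medians of 37124, 26968 and 32465 UMIs, against 5812, 4321 and 3854.5 in cells with neither. Svs2 took 233233, 241748 and 219982 CPM in cells with both and 22185.8, 21176.2 and 9986 CPM in cells with neither. Foxi1 ran the other way, at 109.8, 72.8 and 72.8 CPM in cells with both and 532, 389 and 501 CPM in cells with neither. Foxi1 was still seen in 85.2%, 62.8% and 59.2% of the cells with both. Called doublets were removed beforehand. Whether the cells with both are droplets that hold an ionocyte and a Svs2-rich cell was not tested, and the ionocyte levels above rest on them. In Svs2 Lpo cells both genes were seen in 59.1%, 65.0% and 64.9% of cells, near the 50.8%, 64.5% and 61.2% of independent occurrence.

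**Figure D2:**
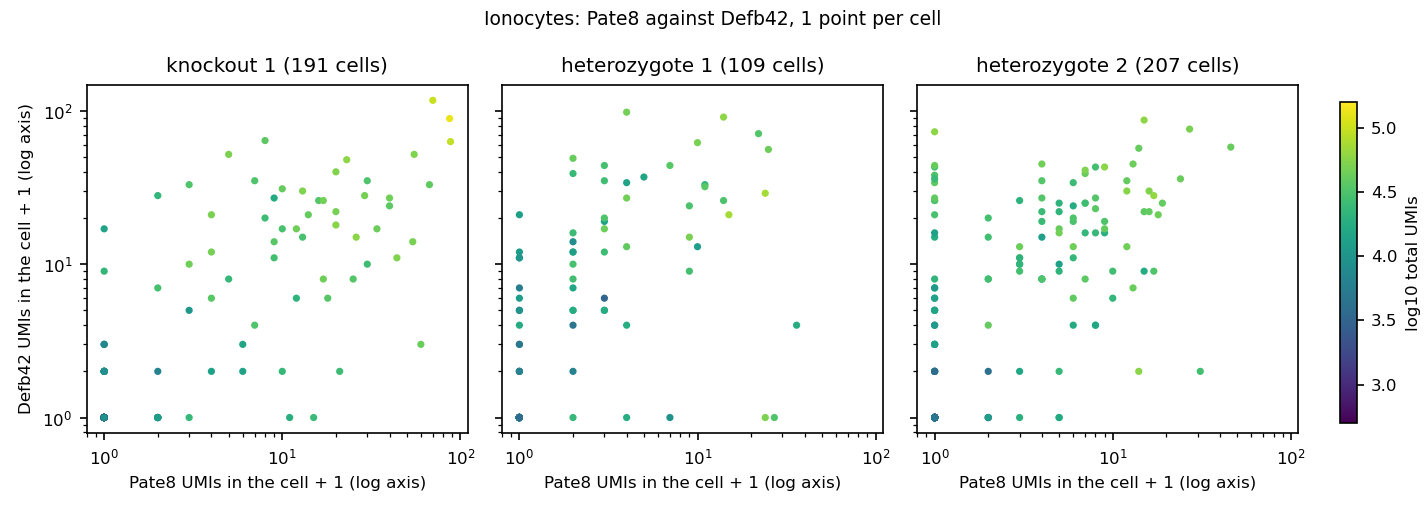
UMIs of Pate8 (x axis) and Defb42 (y axis), each plus 1 on a log axis, in every ionocyte of the 3 libraries, coloured by the log10 of the cell's total UMIs. Cells high in both genes are also the deepest, with median totals of 37124, 26968 and 32465 UMIs among cells with both.

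A further cluster rich in seminal vesicle RNA, the Sprr2f Folr1 cells (385, 321 and 138 cells; markers 50.9%, 46.5% and 42.1% of UMIs), differed in both genes. Of 7 seminal vesicle markers 2, Svs4 and Svs5, passed the marker thresholds in them. Pate8 was low there, at 5.83, 16 and 15.9 CPM. Barcodes of under 500 genes had 16.2 CPM of Pate8 in the knockout and 6.27 in heterozygote 2, so the knockout level lies under that background and the heterozygote 2 level at 2.53 times it. With the stricter cell filter the log2 difference of Pate8 between knockout and heterozygotes went from -1.45 to -0.82. Defb42 was at 34.7 CPM in the knockout (30.7 to 39.2) against 322 in heterozygote 1 (305 to 340) and 219.7 in heterozygote 2 (202 to 238). The heterozygote mean of 271 ± 72.5 CPM was 7.80 times the knockout value, which itself lay under the 52.7 CPM of knockout barcodes with under 500 genes. Thinned shares of cells with Defb42 were 3.38% (1.81 to 5.70%), 16.5% (12.6 to 21.0%) and 17.6% (11.6 to 25.1%), and unthinned shares 26.5%, 52.3% and 56.5%. The 10 cells with the most Defb42 held 37.4%, 34.6% and 42.1% of its UMIs there.

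Within the knockout, Pate14 had its highest level in the Sva Ceacam10 seminal vesicle-like cells, the cluster with 6 of 7 seminal vesicle markers. That cluster held 763 knockout cells and 12 and 0 heterozygote cells, so genotypes cannot be compared within it. In its knockout cells Pate14 stood at 164 CPM (160.0 to 168) and was seen in 92.7% of cells, with a median of 52315 UMIs per cell. The cluster held 58.0% of all Pate14 UMIs in kept cells. Heterozygote 1 had higher levels in luminal cells, 224 CPM in Ms4a5 Tcaf3 cells and 203 in the luminal cluster led by Fgl1 and Mmp7, where the knockout and heterozygote 2 had 82.5 and 113 CPM on 33 and 59 UMIs. In Sprr2f Folr1 cells Pate14 was at 56.6, 89.4 and 46.0 CPM, the knockout between the heterozygotes. In Svs2 Lpo cells it was nearly missing, at 1.65, 0.552 and 0.719 CPM on 16, 3 and 8 UMIs. Pate8, its close neighbour on chromosome 9, was at 596 CPM in knockout Svs2 Lpo cells but at 9.44 and 5.83 CPM in knockout Sva Ceacam10 and Sprr2f Folr1 cells, both under the 16.2 CPM of knockout barcodes with under 500 genes.

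Luminal secretory cells, which make prostatic fluid, held most Pate9, with 37.7% of its UMIs in kept cells in Ms4a5 Tcaf3, 25.6% in Ren1 Tmod4 and 15.2% in C1s2 Srpx luminal cells. The Ms4a5 Tcaf3 luminal cells (235, 688 and 877 cells) had 3286 CPM in the knockout (3233 to 3339), 4049 in heterozygote 1 (4004 to 4094) and 4628 in heterozygote 2 (4589 to 4667). Ren1 Tmod4 luminal cells had 2445, 3266 and 3274 CPM, C1s2 Srpx luminal cells 1771, 2619 and 2745, and the small luminal cluster led by Fgl1 and Mmp7 2905, 5138 and 5313. In all 4 clusters the knockout lay below both heterozygotes, whose mean was 1.32, 1.34, 1.51 and 1.80 times the knockout. Pate9 was seen in 96.9 to 100% of Ms4a5 Tcaf3 and Ren1 Tmod4 cells of each library, while the basal background was 29.5%, 37.9% and 70.0%, at a median of 3145 UMIs per cell against 11721.5 and 11047. Over the 3 libraries the Fgl1 Mmp7 cluster had the highest mean, 4452 ± 1343 CPM, and Ms4a5 Tcaf3 cells the next, 3987 ± 673 CPM (SD, n = 3). The order of these neighbours was reversed in the knockout, where Ms4a5 Tcaf3 cells were higher. Pate9 was lower in Msmb Wfdc3 luminal cells, at 118, 206 and 297 CPM, in the knockout and heterozygote 2 under the background of 623 and 1517 CPM given next.

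Pate9 was also below both heterozygotes in 17 of the 18 clusters with at least 50 cells in each library, non-epithelial cells included. The 18 clusters come from the same 3 libraries, so they are not separate repeats of the comparison. How many of all genes have such a count was not worked out. Basal cells had 94.7, 166 and 469 CPM and smooth muscle cells 54.6, 151 and 270. Barcodes under 500 genes had 623 CPM in the knockout and 1517 in heterozygote 2, and luminal secretory markers took 1.44%, 7.35% and 6.36% of all UMIs. The part of both in the Pate9 differences was not tested. In the whole libraries Pate9 stood at 437, 1455 and 1823 CPM, and in all luminal cells at 2019, 2289 and 2648.

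Ms4a5 Tcaf3 luminal cells also held Pate14 UMIs. Pate14 was at 52.1 CPM in the knockout (45.6 to 59.2), 224 in heterozygote 1 (213 to 235) and 94.9 in heterozygote 2 (89.4 to 101). Defb42 was at 27.0 (22.5 to 32.3), 148 (139 to 157) and 37.1 CPM (33.6 to 40.7). Barcodes under 500 genes had 36.5 CPM of Pate14 and 52.7 CPM of Defb42 in the knockout, and 14.3 and 55.5 CPM in heterozygote 2. The Pate14 levels of the knockout and heterozygote 2 lay above that background, at 1.43 and 6.62 times it. Heterozygote 1 has no background value. The Defb42 levels of the knockout and heterozygote 2 lay under it, but above basal cells (8.34 and 12.4 CPM) and Ren1 Tmod4 cells (4.52 and 18.8). Fibroblasts of these libraries had 8.10 and 34.5 CPM of Defb42. The part of free RNA in the Defb42 levels was not tested. The knockout was lowest for Pate14, but the heterozygotes differed from each other by 2.36 times in Pate14 and 3.99 times in Defb42. Without heterozygote 1 the knockout and heterozygote 2 differed by 1.82 times in Pate14.

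Defb50 was highest in another luminal cluster, the Msmb Wfdc3 luminal cells (121, 249 and 360 cells), which express the secreted microseminoprotein gene Msmb. It made up 79373 CPM in the knockout, 72558 in heterozygote 1 and 85601 in heterozygote 2, the highest level of any member in any cluster. The knockout lay between the heterozygotes, and the mean of all 3 was 79177 ± 6524 CPM (SD, n = 3). The next cluster held in all 3 libraries, the Ms4a5 Tcaf3 cells, had 6969, 4267 and 2930 CPM, the knockout above both. Against barcodes with under 500 genes the knockout level there was 6.32 times the background and the heterozygote 2 level 0.549 times. Basal, Ren1 Tmod4 and C1s2 Srpx cells of heterozygote 2 had 2024, 1454 and 1721 CPM. The part of free RNA in these levels was not tested. In Sprr2f Folr1 cells Defb50 was at 53.7, 301 and 375 CPM, under the 1102 and 5336 CPM of those barcodes in the knockout and heterozygote 2. Msmb Wfdc3 cells held 69.9% of all Defb50 UMIs in kept cells. In whole libraries Defb50 stood at 1944, 6123 and 7752 CPM, the heterozygote mean 3.57 times the knockout, while that cluster held 121 of 8833, 249 of 4526 and 360 of 9331 kept cells.

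The sums over all barcodes, which mix cell makeup with levels, ordered the genotypes in other ways for the remaining members. Pate8 stood at 67.4, 48.3 and 38.4 CPM and Pate14 at 76.0, 51.8 and 21.2, the knockout highest for both, and Defb42 at 109, 200.2 and 149, the knockout lowest. With TMM-scaled totals the log2 difference of Defb42 went from -0.67 to -0.11. Over the 18 clusters with at least 50 cells in each library, the knockout lay above both heterozygotes in 9 and below both in 2 for Pate8, in 7 and 6 for Pate14, in 2 and 10 for Defb42, and in 3 and 8 for Defb50. These counts include clusters with few UMIs, and the clusters come from the same 3 libraries. The like counts over all genes were not worked out. For Pate8 the 9 include smooth muscle (6, 1 and 1 UMIs), fibroblasts (8, 0 and 1) and C1s2 Srpx cells (5, 1 and 10). They also include Msmb Wfdc3 cells, at 22.9, 0.331 and 1.82 CPM (42, 1 and 9 UMIs). Spink5 Sbp luminal cells are another, at 19.7, 0.230 and 1.26 CPM (26, 1 and 5 UMIs). Those knockout levels were 1.41 and 1.22 times that of knockout barcodes with under 500 genes, and neither difference was tested. Barcodes with under 500 genes also had more Pate8 in the knockout, 16.2 CPM against 6.27 in heterozygote 2.

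**Figure D3:**
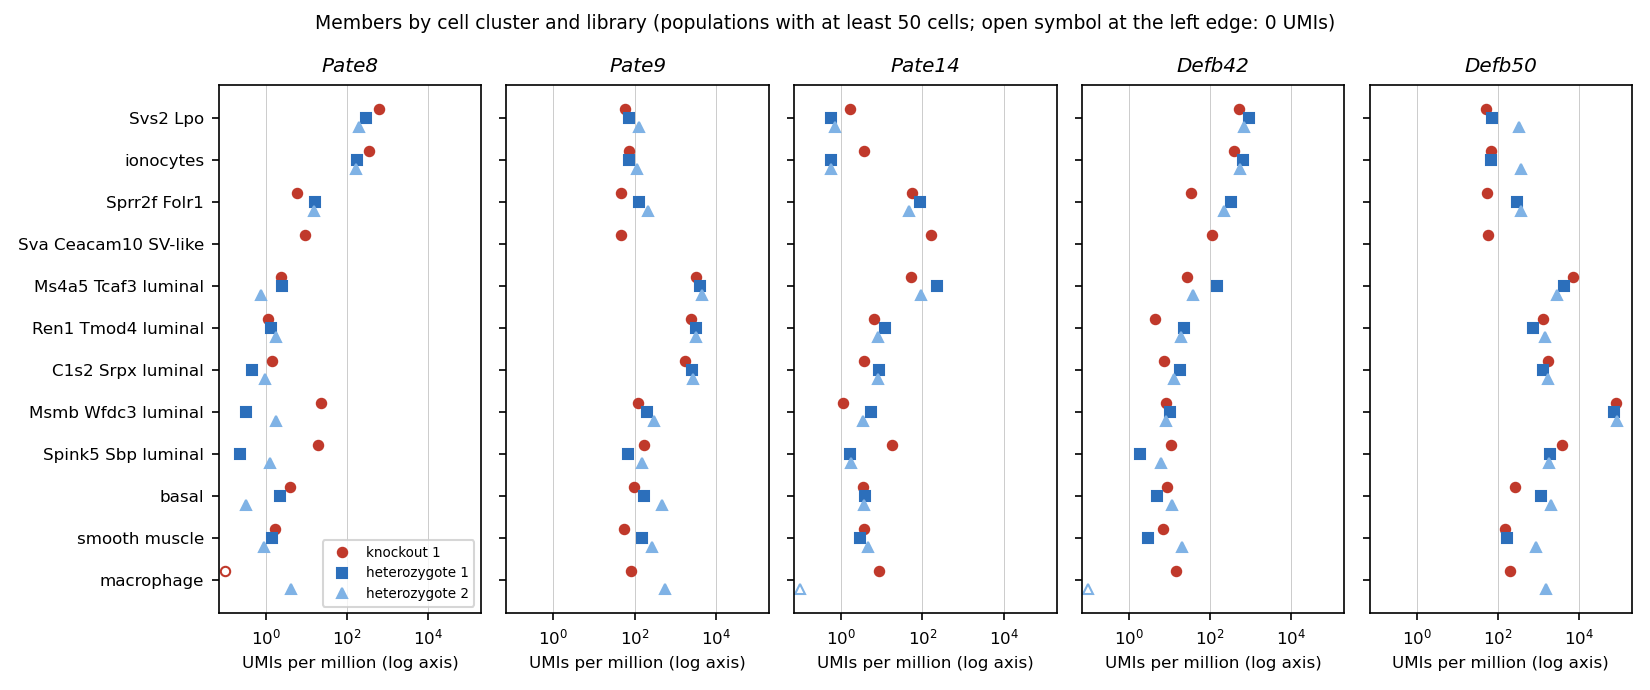
Levels of the 5 genes (CPM, log axis) in 12 clusters, with 1 symbol per library holding at least 50 cells and open symbols at the left edge for 0 UMIs. Pate8 and Defb42 stand highest in Svs2 Lpo cells and ionocytes, Pate9 in Ms4a5 Tcaf3, Ren1 Tmod4 and C1s2 Srpx luminal cells, Pate14 in Sva Ceacam10 (knockout only) and Ms4a5 Tcaf3 cells, and Defb50 in Msmb Wfdc3 cells.

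The patterns of the 5 genes over cell types were compared with each other and with all genes. Over 70 combinations of cluster and library (30 clusters, at least 50 cells), Pearson's r of log2(CPM + 1) was 0.77 between Pate8 and Defb42, 0.53 between Pate9 and Defb50, and 0.43 between Pate9 and Pate14. Among 11512 other genes, Pate8 was most like Pate4 (0.86), Svs2 (0.84) and Cdo1 (0.84), and Defb42 most like Serpine2 (0.85), Bpgm (0.84) and Cdo1 (0.82). Pate9 was most like the prostate transglutaminase Tgm4 (0.98), 9530053A07Rik (0.97) and Fgl1 (0.97). Defb50 was most like Msmb (0.92), Mme (0.89) and Apof (0.86). Pate14 had weaker partners, Dpp4 (0.68), Dkkl1 (0.66) and Adgrg7 (0.64). These combinations share libraries, depth and free RNA, and the values are a description.

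Other genes of both families were tested. Of the 11 other Pate and 40 other Defb genes listed, 8 and 36 had any UMI, and 3 and 12 had at least 100. Pate4, a seminal vesicle product, had 2292499, 627435 and 1061966 UMIs, more than any member, and 49.2% of those in kept cells lay in Svs2 Lpo cells. Defb1 had 48560, 37446 and 82041, with 39.5% in Msmb Wfdc3 cells. Pate2, with 13521, 3143 and 6729, had its largest share in Svs2 Lpo cells (46.6%). Defb9, Defb11, Defb13, Defb15 and Defb30, with 114 to 563 UMIs over all libraries, had their largest shares there too. Defb10 (604 UMIs) had 75.2% and Defb2 (557) 21.6% in Msmb Wfdc3 cells, and Defb48 (144) had 37.8% in Ms4a5 Tcaf3 cells. Pate1 (152), Defb6 (201), Defb28 (383) and Defb43 (196) had their largest shares in Sprr2f Folr1 cells.

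In whole libraries, edgeR's quasi-likelihood test (Benjamini-Hochberg adjusted over all 21046 genes, 1 residual degree of freedom) called 10 of 22 tested family genes, 3 higher and 7 lower in the knockout, where 12% of all genes were called (7.31% higher, 4.7% lower). Their median log2 difference was -0.54, against -0.02 over all genes. Pate4 (17769, 13181 and 10535 CPM, log2 1.13, adjusted p = 0.0237), Pate2 (105, 66.0 and 66.8 CPM, 1.21, adjusted p = 6.1e-05) and Defb25 (17, 1 and 2 UMIs) rose. These CPM are plain totals, in which Pate4 and Pate2 stood at 1.56 and 1.58 times the summed heterozygotes. The log2 values use TMM scaling, with Pate4 at 22976, 11885 and 9040 CPM and Pate2 at 136, 59.5 and 57.3. Defb28, Defb40, Defb6, Defb10, Defb9, Pate1 and Defb43 fell. Defb25 passed the low-count filter only through the knockout. Defb28, Defb40 and Defb9, with 6, 0 and 10 knockout UMIs, passed it only through the heterozygotes. Each of these could hardly come out on the other side. The counts by direction and the median therefore lean on the filter, and no conclusion is drawn from them. Defb10 stood at 0.636, 2.44 and 4.03 CPM, with a log2 difference of -1.79 (adjusted p = 8.0e-05), and Defb9 at 0.0775, 0.756 and 0.675 CPM (-2.63, adjusted p = 0.00044). Whole libraries also differ in cell makeup, with the seminal vesicle markers at 41.4% against 13.2% and 11.5% of UMIs, and its part in these calls was not tested. Barcodes with a Crisp1 UMI, described below, held 92.6% of the heterozygote UMIs of Defb28, 78.2% of Pate1, 55.4% of Defb40 and 54.8% of Defb6, and 10 barcodes held 85.1% of Defb28 and 78.2% of Pate1. Heterozygote 1 alone stood 117, 6.57 and 9.74 times above the knockout in Defb28, Pate1 and Defb43, and heterozygote 2 alone 25, 1.51 and 3.41 times. For Defb6 and Defb10 heterozygote 1 stood 5.06 and 3.83 times above and heterozygote 2 13.5 and 6.34 times, and for Defb40, with 0 knockout UMIs, the bounds against a floor of 3 UMIs were 29.8 and 13.7 times. DESeq2 called 5 of the 22 (Pate2, Pate4, Defb28, Defb6 and Defb10) and gave Defb40 no adjusted p.

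In luminal cells none of 10 family genes passed in edgeR or DESeq2 (5 and 1 at an unadjusted p under 0.05), where edgeR called 2.35% of all genes (0.757% higher, 1.6% lower). Without the luminal clusters that some library hardly held, Pate2 (log2 1.65) and Pate4 (1.78) passed as higher in the knockout. In Svs2 Lpo cells none of 11 passed in either tool (3 and 2 unadjusted), and of all 11477 genes edgeR called 0 (0% in either direction) and DESeq2 33. Defb28 and Defb9 passed as lower there with doublets kept. In the main run they had 0 and 4 knockout UMIs and entered only through the heterozygotes, so they could hardly come out higher. All 47 heterozygote 2 UMIs of Defb28 in the main run lay in 1 cell. In ionocytes none of 7 passed in either tool (1 and 0 unadjusted), with 0.5% of all genes called by edgeR (0.255% higher, 0.245% lower). Pate4 stood in Svs2 Lpo cells at 79585, 67604 and 53114 CPM (log2 0.37, adjusted p = 0.841) and in ionocytes at 48118, 46546 and 40705 CPM. Median differences of the family genes were -0.57 in luminal cells, -0.01 in Svs2 Lpo cells and -0.13 in ionocytes.

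In Sprr2f Folr1 cells 8 of 12 family genes passed, all lower in the knockout, where 3.57% of all 10088 genes were called (1.57% higher, 2% lower). The median over the 12 was -4.84 as fitted, or -3.29 with genes at 0 in the knockout held at their bound, and -0.03 over all genes. The 5 genes with 0 knockout UMIs passed the low-count filter only through the heterozygotes, so they could only come out lower. Defb2, Defb48, Defb6 and Defb43, with 2, 2, 6 and 7 knockout UMIs, also passed it only through the heterozygotes. The medians and the count of lower genes therefore lean to that side, and no conclusion is drawn from them. Defb28 had 0, 241 and 50 UMIs, at least 147-fold lower than heterozygote 1 and at least 48.6-fold lower than heterozygote 2 against a floor of 3 UMIs over the knockout cells (adjusted p = 1.8e-15). Pate1 had 0, 67 and 20 UMIs and was at least 40.8-fold and 19.4-fold lower (adjusted p = 9.9e-10). Defb40 (0, 25 and 9 UMIs) was at least 15.2-fold and 8.75-fold lower and Defb30 (0, 25 and 7) at least 15.2-fold and 6.80-fold, with adjusted p = 0.0011 and 0.0025. Defb2 had 2, 53 and 24 UMIs, a ratio of 43.3 between heterozygotes and knockout (exact interval 11.6 to 364; adjusted p = 2.0e-07). Defb6 had 6, 23 and 108 UMIs (log2 -4.55, adjusted p = 3.4e-08), Defb43 had 7, 45 and 13 (-2.99, adjusted p = 0.0019) and Defb1 had 104, 136 and 229 (-1.90, adjusted p = 0.00075). Against each heterozygote alone the folds were 7.01 and 52.5 for Defb6, 11.7 and 5.42 for Defb43, and 2.39 and 6.42 for Defb1. Defb42, given above with no test, was also lowest in the knockout in these cells, and it overlaps Defb30 on the other strand.

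Of the heterozygote UMIs of these 8 genes in the cluster, 44.7% (Defb1) to 97.7% (Pate1) lay in 10 cells. Defb28 was seen in 11 and 3 heterozygote cells and no knockout cell. Many of the cells also held Crisp1, which encodes a secreted sperm-binding protein of the male tract and was chosen after its values were seen. Cells with a Crisp1 UMI numbered 4 of 385 in the knockout (1.04%, interval 0.284 to 2.64%), 31 of 321 in heterozygote 1 (9.66%, 6.66 to 13.4%) and 38 of 138 in heterozygote 2 (27.5%, 20.3 to 35.8%). These Crisp1 cells carried all of the heterozygote Defb28 UMIs, 98.3% of Defb43 and 36.4% of Defb1. Without the cells that hold a Crisp1 UMI only 4 family genes could be tested, and 2 passed, both lower, Defb6 (-3.00, adjusted p = 0.0128) and Defb1 (-1.73, adjusted p = 0.00024). Defb6, with 6 knockout UMIs in the whole cluster, entered that run only through the heterozygotes, so it could hardly come out higher. An epididymis list had 1, 2 and 1 of its 8 markers above 0, on 11, 7 and 1 UMIs. DESeq2 called 3 of the 12 family genes (Defb28, Defb2 and Pate1) and gave Defb30 and Defb40 no adjusted p, and edgeR called 1 (Defb2) in cells of at least 2466 UMIs. The part of the Crisp1 cells in the calls beyond these values was not tested. Among the members, Defb42 without Crisp1 cells was at 34.2, 233 and 195 CPM, the knockout again lowest.

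**Figure D4:**
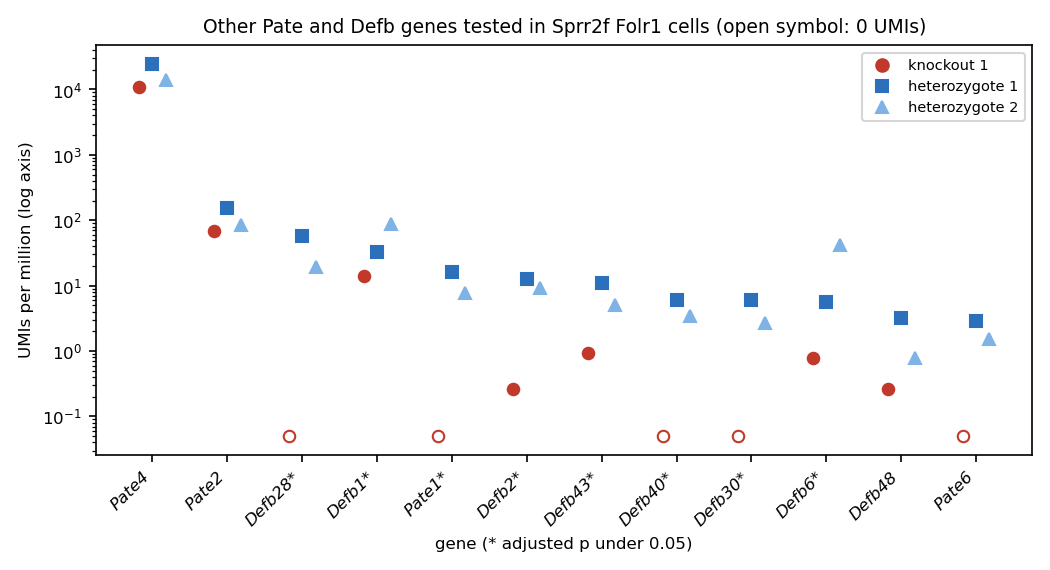
Levels of the 12 other Pate and Defb genes tested in Sprr2f Folr1 cells (CPM, log axis), with 1 symbol per library and an open symbol for 0 UMIs. The 8 genes marked with an asterisk passed the test and are lower in the knockout, and 5 genes have 0 knockout UMIs.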

How the data were processed

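The 3 whole-prostate libraries were grouped by their genotype labels. The deposited matrices hold raw UMI counts per gene and barcode, and the submitters' processing notes name Cell Ranger 3.1.0 and mm10. The method that called barcodes as cells is not given in the sources used here. Members and gene lists were chosen with earlier results of these data known. A minimum of 500 genes and a maximum of 15% mitochondrial UMIs were required. Doublets were scored with scrublet in scanpy 1.11.5, whose automatic threshold called 0 to 0.04%, so the top-scoring barcodes were removed at 0.8% per 1000 barcodes (1150, 192 and 1256). Cells were clustered on 2000 variable genes, 30 components and 20 neighbours (Leiden resolution 1.0), without 56 Pate and Defb genes and 70 genes common in barcodes under 500 genes. A cluster took a cell type name with at least 3 markers detected (log2 fold of 1, 25% of cells) and a marker among its top 10 genes (40 for luminal secretory cells). UMIs summed per library were tested with edgeR 4.0.16 (filterByExpr, TMM, threshold 0.05). The fit was tried on simulated data with the same dispersion for every gene and changes placed only in genes of higher level. That trial does not cover genes with few UMIs held by few cells. With 1 knockout library, only the heterozygotes show how replicates vary, and the knockout is assumed to vary alike. In edgeR that variation was pooled over genes, with a weight given by the prior degrees of freedom. These were infinite in whole libraries and luminal cells, and 116.8 in Sprr2f Folr1 cells, against 1 residual degree of freedom. In ionocytes and Svs2 Lpo cells they were 13.9 and 5.33. With a large prior, a gene's p-value reflects the pooled variation and hardly its own difference between the heterozygotes. CPM use plain totals unless TMM scaling is named, while the log2 differences of tested genes come from the TMM-scaled fit. DESeq2 1.42.0 was an alternative. Exact intervals are at 95%, and intervals and floors cover counting error only. Those on UMIs treat each UMI as independent, so they are too narrow where few cells hold most UMIs of a gene. The planned fits of seminal vesicle-like cells could not be made, since those clusters held under 50 heterozygote cells. Fits in Svs2 Lpo cells, Sprr2f Folr1 cells and ionocytes were added after seeing the data. Named genes are all members, family genes that pass a fit or have at least 100 UMIs, and the 3 most similar genes per member.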

Additional observations from a re-analysis of the deposited data

Results flagged for a closer look

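Pate8 stood on opposite sides of the heterozygotes in 2 clusters rich in seminal vesicle RNA. It was 2.49 times the heterozygote mean in knockout Svs2 Lpo cells, while the heterozygote mean was 2.73 times the knockout in Sprr2f Folr1 cells, on 44, 66 and 41 UMIs. The knockout level there, 5.83 CPM, lies under the 16.2 CPM of knockout barcodes with under 500 genes, and the log2 difference of -1.45 went to -0.82 with the stricter cell filter. Defb50 was 3.35 times the heterozygote mean in knockout endothelial cells, while in fibroblasts the heterozygote mean was 11.7 times the knockout. Single cells held 1354 of the 4774 knockout endothelial UMIs and 650 of the 706 heterozygote 1 fibroblast UMIs of Defb50. The endothelial knockout level was 10.3 times heterozygote 1 and 2.00 times heterozygote 2, whose levels of 327 and 1675 CPM differed 5.13-fold. In fibroblasts heterozygote 1 and heterozygote 2 stood 15.7 and 7.78 times above the knockout. The fibroblast levels of 219 CPM in the knockout and 1702 in heterozygote 2 lie under the 1102 and 5336 CPM of barcodes with under 500 genes, as does the endothelial level of heterozygote 2. Neither difference was tested. Groups of 1 and 2 libraries are too small to look for an outlying sample.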

How the results depend on the processing

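No paired analysis was possible because the labels carry no replicate numbers shared by the groups. Of 171 alternative values of 20 member levels, 153 moved by less than the heterozygote SD, 14 by more and 4 changed sign. Leaving out 1 heterozygote always moves a value by less than that SD, so such runs could differ only by a change of sign. At Leiden resolution 0.5 the Svs2 Lpo, Sprr2f Folr1 and ionocyte clusters held the same cells, so their values could not move. Pate14 in Sprr2f Folr1 cells (log2 knockout minus heterozygote mean -0.18) went to 0.0399 with TMM-scaled totals and to 0.30 without heterozygote 1 or -0.66 without heterozygote 2. Defb50 in Msmb Wfdc3 cells went from 0.01 to -0.11 and 0.13 in turn, and Defb50 in luminal cells from -0.11 to 0.14 with the stricter cell filter. With TMM-scaled totals, whole-library Defb42 went from -0.67 to -0.11. Called family genes in whole libraries numbered 5 with DESeq2 against 10. In luminal cells they numbered 2 (Pate2 and Pate4, both higher) in clusters held by all libraries, and 1 each (Pate2, higher) at Leiden resolution 0.5 and with Pate and Defb genes in the clustering. In Svs2 Lpo cells they numbered 2 (Defb28 and Defb9, lower) in cells of at least 2466 UMIs, with doublets kept and with the stricter filter, and 1 (Defb28) with Pate and Defb genes in the clustering. Its 47 heterozygote 2 UMIs there came from 1 cell. Defb28, like Defb9, entered the main run only through the heterozygotes and could hardly come out higher. In Sprr2f Folr1 cells they numbered 3 with DESeq2, 1 in cells of at least 2466 UMIs and 2 without Crisp1 cells, against 8. In ionocytes they numbered 0 under every alternative run. The clusters held by all libraries and the Crisp1 setting were chosen after seeing the data. The cause was not tested. Without either heterozygote the fit has no residual degrees of freedom, and no count was made. Settings for the planned seminal vesicle-like fits were not run.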
